A study of Sus scrofa with 2 samples.

Results

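The miR-181 family was followed in small RNA libraries of whole testis from Junmu-1 boars, a white Chinese pig breed. The members were all listed sequence tags whose miRNA name, without species prefix, copy number and arm, was miR-181, miR-181a, miR-181b, miR-181c or miR-181d. They came to 8 names with arm of the 1385 in the 2 libraries, and held 32594 of 7525725 miRNA-matched reads at 30 days, before sexual maturity, and 2065 of 852209 at 180 days, after it. Each library was made from pooled RNA of 3 boars of 1 age, so there was no replicate spread, no test and no p-value. All intervals are exact 95% intervals for the error of counting reads in these libraries and say nothing of the spread between boars. The labels name no molecular identifiers, so PCR copies were counted as reads. Levels are given as RPM, reads scaled to the library's total of miRNA-matched reads. In these units 3 reads were 0.399 RPM in the 30-day library and 3.52 RPM in the 180-day library.

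A miRNA is cut from a hairpin precursor as a pair of strands, of which the main arm is usually loaded into Argonaute and the other, named with a star, is mostly lost. The bases at positions 2 to 8 from the 5′ end, the seed, pair with target mRNAs, so miRNAs with the same seed are grouped as a family. The miR-181 family is conserved across vertebrates and is best known from lymphocytes, where miR-181a tunes the response of the T cell receptor, and from the vessel wall and the brain. In the RefSeq annotation of the pig assembly Sscrofa11.1, 6 genes encode it in 3 neighbouring pairs. MIR181A-1 and MIR181B-1 overlap the protein-coding gene LOC110255652, and the pair lies beside PTPRC, on the side of MIR181B-1. PTPRC encodes the leukocyte antigen CD45. MIR181A-2 and MIR181B-2 lie within the bounds of NR6A1, which encodes a nuclear receptor of germ cells, and MIR181C and MIR181D lie beside MIR23A.

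The most read tag of each main arm is shown 5′ to 3′ with the seed in capitals, because the seed is what the members share. Letters are DNA letters, as in the deposited lists.
miR-181a: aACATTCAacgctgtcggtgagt
miR-181b: aACATTCAttgctgtcggtgggtt
miR-181c: aACATTCAacctgtcggtgagtt
miR-181d: aACATTCAttgttgtcggtgggt
All 14 main-arm entries named in the lists had this seed, and 0 entries outside the family had it.

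The members differ just after the seed, and the next lines show in capitals the bases that tell them apart, at positions 9 to 12 counted from 1 at the 5′ end (9 to 11 in miR-181c, which is 1 base shorter).
miR-181a: aacattcaACGCtgtcggtgag
miR-181b: aacattcaTTGCtgtcggtggg
miR-181c: aacattcaACCtgtcggtgag
miR-181d: aacattcaTTGTtgtcggtggg
From miR-181b to miR-181d the change is a single C12T over 22 bases, and from miR-181a to miR-181b there are 3 changes, A9T, C10T and A21G.

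The deposited names did not follow these bases for miR-181d. Its tag of 24 nucleotides with a last TT was listed as pig miR-181b, whose entry has that length, with 1 mismatch at position 12. The pair is shown with position 12 in capitals.
miR-181d sequence listed as miR-181b: aacattcattgTtgtcggtgggtt
miR-181b: aacattcattgCtgtcggtgggtt
The upper tag had 930 reads at 30 days and 115 at 180 days, and the lower 1547 and 83. Of all reads with the miR-181d bases, 1452 of 5127 carried the name miR-181b at 30 days (28.3%, interval 27.1 to 29.6%) and 197 of 412 at 180 days (47.8%, 42.9 to 52.8%). Tags of 24 nucleotides or longer held 97.4% of these misnamed reads at 30 days and 100% at 180 days. Main arms are therefore given both by deposited name and by deciding bases, the second a way of counting chosen after this was seen. The deciding bases were read without error in all but 2.25% of the main-arm reads at 30 days (2.09 to 2.42%) and 2.41% (1.77 to 3.19%) at the later age, and those reads stayed out of the second count.

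The levels of the main arms addressed how much of each member the immature and mature testis held. The family's main arms together were lower in the 180-day library, at 4194 RPM in the 30-day and 2291 RPM in the 180-day library. Their ratio, here always 180-day over 30-day RPM, was 0.546 (0.521 to 0.572). As a share of miRNA reads, the main arms went from 0.419% (0.415 to 0.424%) to 0.229% (0.219 to 0.239%). In whole tissue, fewer cells of a type and less of the miRNA per cell cannot be told apart.

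miR-181a, the most abundant member in both libraries, had 17351 reads (2306 RPM) at 30 days and 983 reads (1153 RPM) at 180 days by name. Its ratio was 0.5003 (0.469 to 0.534) by name and 0.499 (0.467 to 0.533) by deciding bases, on either side of the 2-fold line. By deciding bases it made up 55.0% (54.4 to 55.5%) of the family's main-arm reads in the 30-day and 50.3% (48.1 to 52.6%) in the 180-day library, so it led the family at both ages.

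miR-181b, encoded beside miR-181a in both of their gene pairs, had 9388 reads (1247 RPM) and 620 reads (728 RPM) by name, a ratio of 0.583 (0.537 to 0.633). By deciding bases it had 7745 reads (1029 RPM) and 411 reads (482 RPM), a ratio of 0.469 (0.423 to 0.518). Taking out the miR-181d tags thus lowered its ratio.

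miR-181d moved the other way between the counts. It had 3764 reads (500.2 RPM) and 220 reads (258 RPM) by name, a ratio of 0.516 (0.448 to 0.591). By deciding bases it had 5127 reads (681 RPM) and 412 reads (483 RPM), a ratio of 0.710 (0.640 to 0.785). At 180 days miR-181b and miR-181d were thus level by deciding bases (437 to 531 and 438 to 532 RPM), whereas by name miR-181b stood far above miR-181d.

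miR-181c, the scarcest main arm, had 1060 reads (141 RPM) and 128 reads (150.2 RPM) by name and stayed near its 30-day level. Its ratio was 1.07 (0.881 to 1.28) by name and 1.07 (0.878 to 1.29) by deciding bases. Its share of the main-arm reads went from 3.30% (3.10 to 3.50%) to 6.46% (5.39 to 7.66%). From high to low, the order at 30 days was miR-181a, then miR-181b, then miR-181d, then miR-181c by both counts, with intervals that did not overlap. The name miR-181 without a letter, an entry from a sea squirt, had 1 read in each library, both with the bases of miR-181c.

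**Figure D1:**
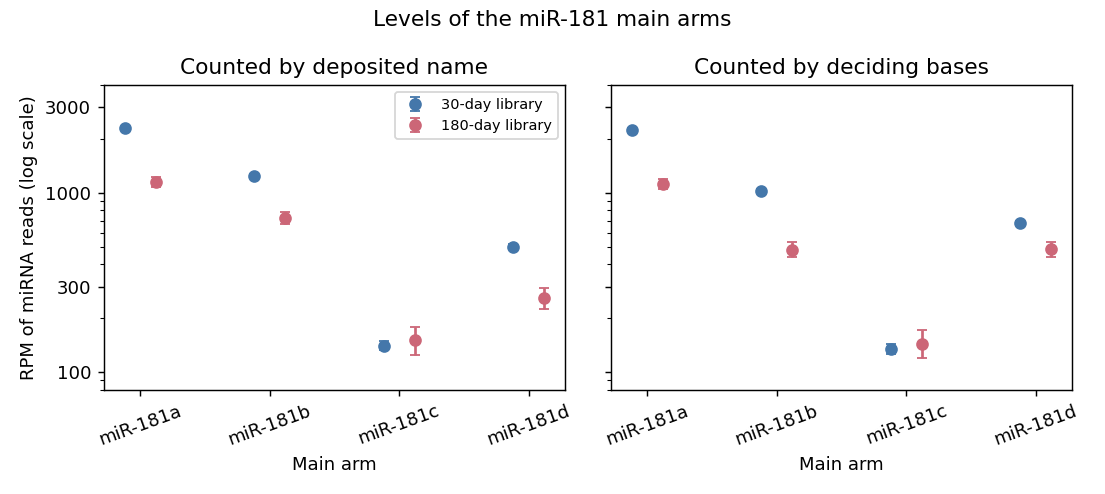
Level of each miR-181 main arm in RPM (log axis) in the 30-day and the 180-day library, counted by deposited name (left) and by deciding bases (right), with exact 95% Poisson counting intervals, many of them smaller than the points. At 180 days miR-181b and miR-181d lie at the same level by deciding bases (482 and 483 RPM) and apart by name (728 and 258 RPM).

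Whether the members differed from one another in the change was read from the ratio of 2 members' ratios, for all 6 pairs of main arms. The interval excluded 1 in 5 pairs by deciding bases and in 4 by deposited name. How often pairs of other miRNAs do so was not counted. For single names the interval often excluded 1, with a ratio below 1 in 23.9% of 469 names and above 1 in 42.9%. By deciding bases, miR-181a and miR-181b, which share their gene pairs, had a ratio of ratios of 1.07 (0.945 to 1.20). miR-181c and miR-181d, the third gene pair, both stood above them: the ratio of miR-181a was 0.467 times that of miR-181c (0.383 to 0.575) and 0.703 times that of miR-181d (0.623 to 0.795). For miR-181b these values were 0.439 (0.354 to 0.547) and 0.660 (0.572 to 0.762). miR-181c and miR-181d also differed from each other, 1.505-fold (1.21 to 1.87). By deposited name, miR-181d stood with miR-181a instead, at 0.969 for miR-181a over miR-181d (0.833 to 1.13).

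Read against all miRNAs, 7 of the 8 names with arm had 20 or more reads over both libraries. Of these 7, 0 met the rule of a ratio of 0.5 or less with an interval excluding 1, which 12.2% of all 469 such names did, and 0 met the rule of 2 or more, which 29.4% did. With each tag given to its best-matching entry, 2 of 7 members, miR-181a and miR-181b, were lower by the rule, as were 12% of 476 names. Without tags of 1 read, 3 of 7 members were lower by the rule, as were 18.3% of 443 names. These were the main arms of miR-181a and miR-181d and a star arm. A tag of 1 read stood for 0.133 RPM at 30 days and 1.17 RPM at 180 days, so the filter was stricter at 180 days. With perfectly matching tags 2 of 6 were lower, the main arms of miR-181b and miR-181d, as were 12.1% of 297 names. For miR-181d these were only the 1419 and 58 reads of its most read tag, shown above. Without the 2-fold demand, 3 of the 7, the main arms of miR-181a, miR-181b and miR-181d, had a ratio below 1 with an interval excluding 1, as did 23.9% of all names. The family's median log2 ratio was -0.78 and that of all 469 names 0.22.

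These ratios are relative to the miRNA-matched reads, and the scaling set how many members counted as lower. With TMM scaling every log2 ratio shifted by -0.91, 4 of 7 members were lower by the rule, and of all names 161 were lower (34.3%) and 72 higher, in place of 57 and 138. The 4 were the main arms of miR-181a, miR-181b and miR-181d and the star arm of miR-181b, which had only 49 and 3 reads. miR-181c then also lay below 1, with a log2 ratio of -0.82, but did not meet the rule. The tag numbers, read as ranks over each whole library, put miRNA matches at no more than 59.2% of the 30-day and 7.08% of the 180-day library. Per read of the whole library at those lowest totals, log2 ratios shifted by -3.06 and 7 of 7 members were lower, as were 84.4% of all names.

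**Figure D2:**
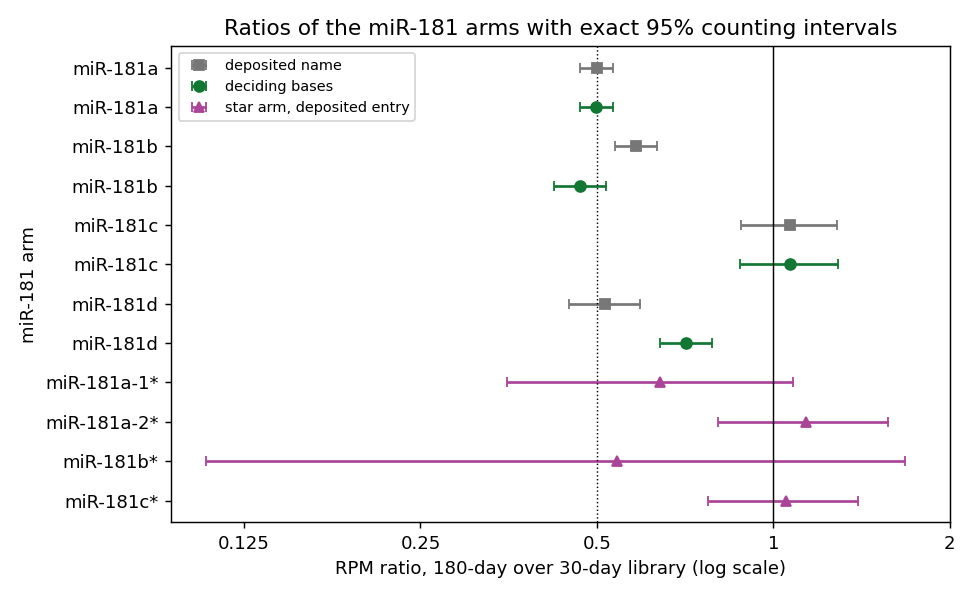
Ratio of RPM in the 180-day to the 30-day library (log axis) for each main arm by deposited name (squares) and by deciding bases (circles) and for each star arm by entry (triangles), with exact 95% counting intervals. The lines mark a ratio of 1 and of 0.5, and miR-181b and miR-181d trade places between the 2 ways of counting.

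The star arms as a sum were level between the libraries, at 137 RPM (1030 reads) and 133 RPM (113 reads), a ratio of 0.969 (0.791 to 1.18). Their sequences can separate loci that the main arms cannot. The most read star tags are shown with bases 2 to 8 in capitals.
miR-181a-1 star arm: aCCATCGAccgttgattgtacc
miR-181a-2 star arm: aCCACCGAccgttgactgtacc
miR-181c star arm: aCCATCGAccgttgagtggacc
miR-181b star arm: cTCACTGAacaatgaatgcaa

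The star arm of miR-181a-2 is named for the gene within NR6A1. It had 326 reads (43.3 RPM) at 30 days and 42 reads (49.3 RPM) at 180 days, a ratio of 1.14 (0.805 to 1.57). The star arm of miR-181a-1 is named for the gene in the pair beside PTPRC and was listed as miR-181a*. It had 207 reads (27.5 RPM) and 15 reads (17.6 RPM), a ratio of 0.640 (0.352 to 1.08). The ratio of these 2 ratios was 1.78 (0.937 to 3.54), so a difference between the loci was not detectable at this depth. Pooled, the miR-181a star arms made up 2.99% of the reads of both arms at 30 days (2.75 to 3.25%) and 5.48% at 180 days (4.18 to 7.04%), and their ratio was 1.88 times that of the main arm (1.39 to 2.50). The miR-181a-2 star arm alone had 2.27 times the ratio of the miR-181a main arm (1.60 to 3.17), whose reads come from both loci.

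In miR-181c the arms kept their proportion. Its star arm had 446 reads (59.3 RPM) and 53 reads (62.2 RPM), a ratio of 1.05 (0.774 to 1.40), and made up 29.6% of both arms at 30 days (27.3 to 32.0%) and 29.3% at 180 days (22.8 to 36.5%). No other member had so large a share of star reads, with at most 5.48% elsewhere. The star arm of miR-181b, listed only under a platypus entry, had 49 reads and 3 reads, a ratio of 0.541 (0.108 to 1.68). It made up 0.519% and 0.482% of both arms by name, and 0.617% and 0.713% with each tag given to its best-matching entry. The platypus entry itself was matched in full by 0 reads in each library, so reads of this arm may have been missed. No tag in either list carried the name of a star arm of miR-181d, so its share is not known.

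Star-arm reads departed from the human entries they were matched to. In 318 of 320 reads of the miR-181a-2 star arm that began at the entry's start, the sixth base from the 5′ end was changed, T6C, at 30 days (99.4%, 97.8 to 99.9%), as it was in 41 of 41 reads at 180 days. This change lies within bases 2 to 8, where the entry reads:
miR-181a-2 star arm, human entry: aCCACTGAccgttgactgtacc
The miR-181c star arm began 1 base later than its human entry in 83.1% (79.2 to 86.5%) of the 30-day and 86.0% (73.3 to 94.2%) of the 180-day reads. At that start its bases 2 to 8 are those of the miR-181a-1 star arm, CCATCGA. The miR-181a-1 star arm itself began at its entry's start in 94.3% of reads (90.0 to 97.1%) and 93.3% (68.1 to 99.8%).

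The 5′ start of the main arms, which fixes the seed, was almost uniform. By deciding bases, the start shown above was used by 98.4% of reads in the 30-day (98.3 to 98.5%) and 98.1% in the 180-day library (97.3 to 98.6%). The exception was miR-181b, of which 3.07% began 1 base later at 30 days (2.70 to 3.48%) and 5.11% at 180 days (3.19 to 7.70%). In miR-181a that share was 0.401% (0.311 to 0.508%) and 0.521% (0.170 to 1.21%). In miR-181d it was 1.40% (1.10 to 1.77%) and 0.485% (0.0588 to 1.74%). miR-181c had 6 such reads of 1017 at 30 days and 0 of 123 at 180 days. Taken as 3 reads of that total, a count of 0 allows a share of up to 2.44%, and the exact interval reaches 2.95%.

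The 3′ ends were far more varied, and the longer ones were less reduced in the 180-day library. Tags that matched their entry over the whole length held 45.5% of the family's reads in the 30-day library (44.9 to 46.0%) and 39.3% in the 180-day library (37.2 to 41.5%), against 63.6% and 59.4% of all miRNA reads. These shares do not measure the 3′ ends alone. Mismatches elsewhere also lower them, as in the miR-181d tags listed as miR-181b. The ends of miR-181a show the range, with the bases after the common core in capitals.
miR-181a, 22 nucleotides: aacattcaacgctgtcggTGAG
miR-181a, 23 nucleotides: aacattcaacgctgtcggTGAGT
miR-181a, 24 nucleotides: aacattcaacgctgtcggTGAGTT
miR-181a, 25 nucleotides: aacattcaacgctgtcggTGAGTTT
miR-181a, last base A: aacattcaacgctgtcggTGAGA
The tag of 22 nucleotides had 410.1 RPM at 30 days and 168 RPM at 180 days (ratio 0.409, 0.344 to 0.484). The tag of 23 went from 512 to 246 RPM (ratio 0.481, 0.417 to 0.553), that of 24 from 197 to 128 RPM (0.649, 0.529 to 0.788) and that of 25 from 150.4 to 131 RPM (0.874, 0.713 to 1.06). The tag ending in A, of 23 nucleotides, went from 107 to 71.6 RPM (0.670, 0.508 to 0.870). In miR-181a the ratio thus came closer to 1 with each T at the end. The same series of ends gave 0.424, 0.405, 0.474 and 0.701 in miR-181b and 0.434, 0.361, 1.09 and 0.798 in miR-181d. In miR-181c it gave 1.07, 1.67, 0.751 and 1.37.

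By length over all its tags, miR-181a had a ratio of 0.291 (0.227 to 0.368) at 20 nucleotides, 0.425 (0.361 to 0.497) at 22, 0.690 (0.575 to 0.823) at 24 and 0.892 (0.739 to 1.07) at 25. miR-181b had 0.166 (0.0879 to 0.286) at 20, 0.483 (0.365 to 0.628) at 22, 0.450 (0.366 to 0.548) at 24 and 0.723 (0.566 to 0.913) at 25. miR-181d had a step between 23 and 24 nucleotides, from 0.413 (0.331 to 0.510) to 1.03 (0.870 to 1.22), and had 1.35 (1.03 to 1.74) at 25. At 26 nucleotides, with few reads, the ratio was 3.36 (1.87 to 5.79) in miR-181d, from 50 and 19 reads. There it was 2.32 (1.22 to 4.16) in miR-181a, from 57 and 15 reads, and 0.895 (0.489 to 1.52) in miR-181b, from 148 and 15 reads. miR-181c gave 0.795 (0.575 to 1.08) at 23 and 1.28 (0.919 to 1.75) at 24, and its ratio showed no steady course with length.

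**Figure D3:**
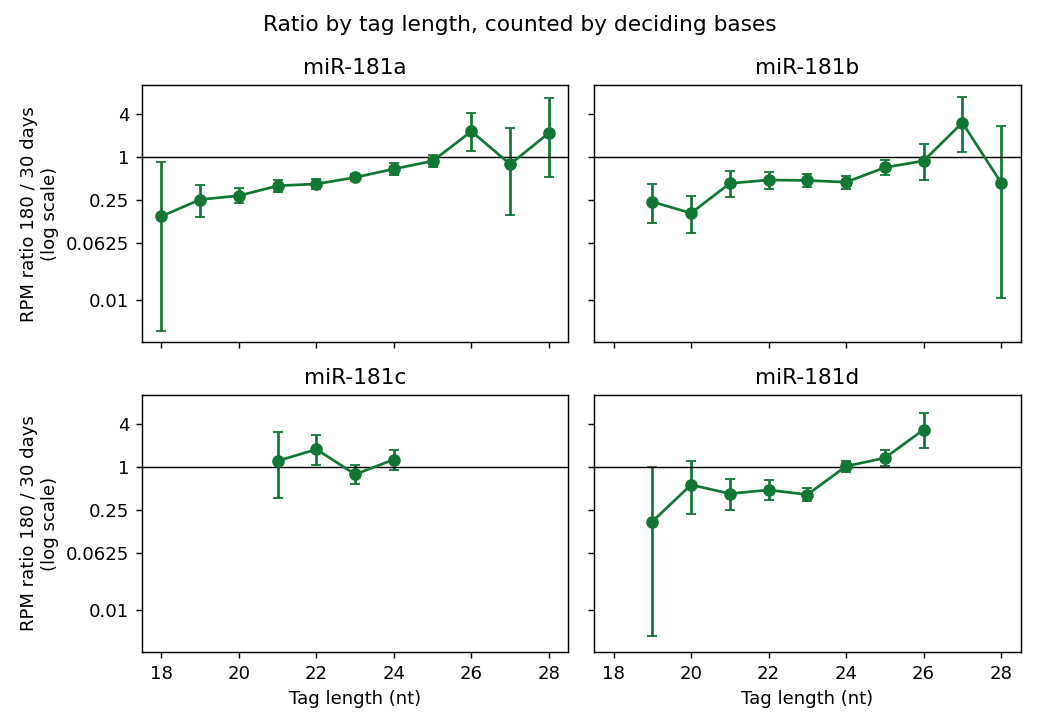
Ratio of RPM in the 180-day to the 30-day library (log axis) against tag length in nucleotides for the 4 main arms, counted by deciding bases, with exact 95% counting intervals, for lengths with 20 or more reads over both libraries and reads in each. In miR-181a the ratio climbs from 0.291 at 20 nucleotides to 0.892 at 25, and in miR-181d from 0.413 at 23 to 1.03 at 24.

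The same was compared by the kind of end, among tags with the exact core from the first base. Ends with 2 or more T after the last G were set against those that stopped at or before that G. The long-ended reads of miR-181a had a ratio of 0.770 (0.670 to 0.881) and the short-ended 0.368 (0.327 to 0.411), a 2.09-fold difference (1.75 to 2.50). In miR-181b the difference was 1.93-fold (1.43 to 2.61), between 0.571 (0.475 to 0.682) and 0.296 (0.233 to 0.372). In miR-181d it was 2.48-fold (1.78 to 3.48), between 1.07 (0.888 to 1.28) and 0.432 (0.324 to 0.564). In miR-181c it was 1.26-fold with an interval of 0.492 to 4.15, since only 5 short-ended reads were in the 180-day library.

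Shares of the ends show how the members differ at each age. miR-181c was the member with the most long ends, 77.6% at 30 days (74.9 to 80.2%) and 72.0% at 180 days (63.0 to 79.9%). For miR-181a these shares were 16.0% (15.4 to 16.6%) and 24.9% (22.2 to 27.8%), for miR-181b 27.9% (26.9 to 29.0%) and 35.01% (30.2 to 40.1%), and for miR-181d 22.7% (21.6 to 23.9%) and 34.0% (29.4 to 38.9%). Ends with A after the last G, with or without T, were most common in miR-181d, at 18.6% (17.5 to 19.7%) and 28.0% (23.7 to 32.7%), and were 5.56% (5.21 to 5.92%) and 8.63% (6.90 to 10.6%) in miR-181a. They were 14.8% (14.0 to 15.6%) and 16.2% (12.6 to 20.3%) in miR-181b, and 2.43% (1.56 to 3.60%) and 2.54% (0.527 to 7.25%) in miR-181c. Whether the last bases are encoded in the pig genome or were added to the miRNA was not tested.

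**Figure D4:**
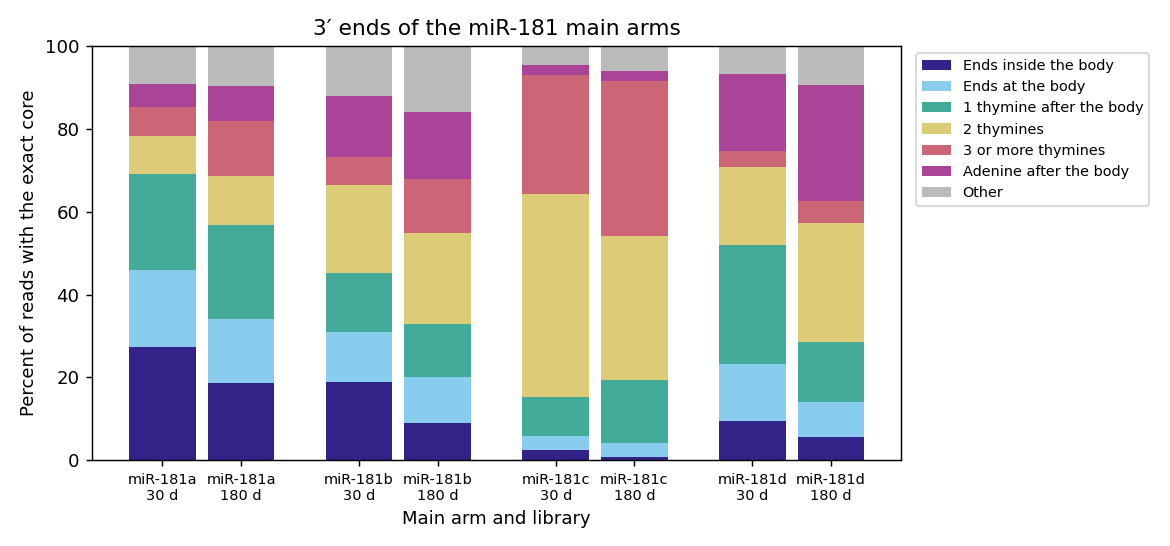
Percent of reads with each kind of 3′ end for the 4 main arms in the 30-day and 180-day libraries, as stacked bars, among tags with the exact core; the body is the 4 bases that follow the core. Bars of miR-181c are dominated by ends with 2 or more thymines (77.6 and 72.0%), and ends with adenine are largest in miR-181d (18.6 and 28.0%).

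Mean tag length gives the same comparison for every miRNA. By deciding bases it went from 22.2 to 22.8 nucleotides in miR-181a, from 22.8 to 23.3 in miR-181b and from 23.07 to 23.7 in miR-181d, gains of 0.550, 0.551 and 0.623 nucleotides. In miR-181c it went from 23.06 to 23.1, a gain of 0.0418. Longer tags in the 180-day library were common in the whole pool: of the 163 names with 100 or more reads in each library, 83.4% had a longer mean, with a median gain of 0.0988 nucleotides. A gain of 0.3 or more was reached by 14.1% of these names. These 163 names were counted by deposited name. By that count miR-181b ranked 5, miR-181a 11, miR-181d 28 and miR-181c 110 by gain. The gains were 0.724 nucleotides in miR-181b, 0.548 in miR-181a, 0.271 in miR-181d and 0.0438 in miR-181c. The name miR-181b here included the longer miR-181d tags.

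**Figure D5:**
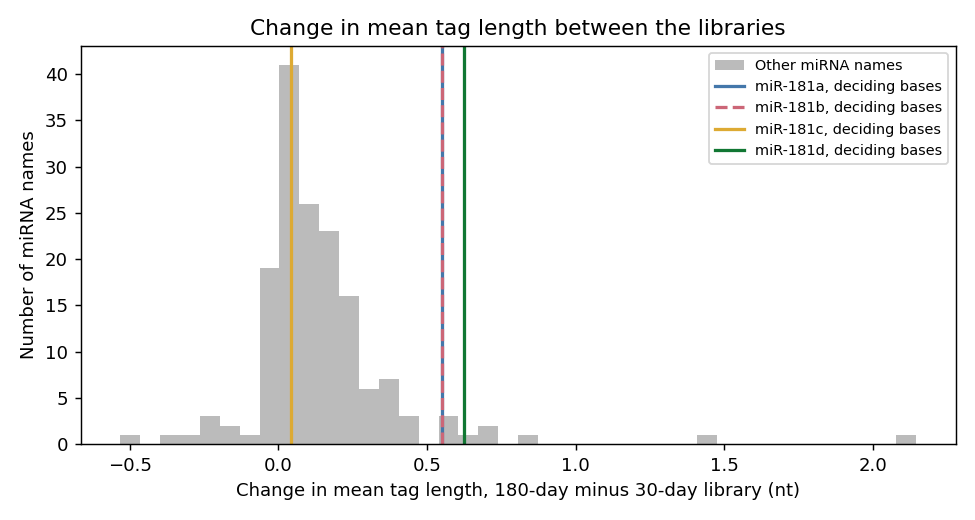
Histogram of the change in mean tag length (180-day minus 30-day library, nucleotides). It covers the other miRNA names with 100 or more reads in each library, counted by deposited name. Lines mark the 4 miR-181 main arms by deciding bases. The lines of miR-181a, miR-181b and miR-181d lie at 0.550, 0.551 and 0.623, in the right tail, and that of miR-181c at 0.0418, in the middle.

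The 5 miRNAs nearest to the family total in log2 ratio (-0.87), among 82 names with 500 or more reads in each library, were miR-25 (-0.88), miR-214 (-0.90), miR-125a (-0.91), let-7e (-0.92) and miR-152 (-0.78). With 2 libraries this likeness rests on 1 number per miRNA.

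Markers of the testis were present: miR-202, a miRNA of the gonads, held 68481 and 110872 RPM, and the germ cell miRNAs miR-34b, miR-34c and miR-449a together went from 11.2 to 34835 RPM. Since the family is known from lymphocytes, the lymphocyte-linked miR-150, miR-155 and miR-342 were set beside it. Of these 3 markers 0 were higher and 1, miR-155, was lower, at 143 and 7 reads, with a summed level of 183 RPM and 168 RPM, a ratio of 0.917 (0.767 to 1.09). Of 5 white blood cell markers, miR-223 and miR-146b were higher and miR-155 was lower. Their sum went from 322 to 1010 RPM, of which miR-146b held 135 and 808 RPM, and the other 4 summed to 187 and 202 RPM. The endothelial miR-126 had 381 and 629 RPM, and the mesenchymal miR-199a and miR-214 together had a ratio of 0.650 (0.643 to 0.657). That sum left out reads listed as miR-199 without a letter, which were lower by the rule. The name miR-199 had 287203 and 14741 reads, a ratio of 0.453 (0.446 to 0.461). Its star arm had a ratio of 0.336 (0.324 to 0.349), and the name miR-199-3p was also lower. The mesenchymal ratio therefore depends on which names are summed. None of the listed markers was at 0 in either library, and their part in the family's values was not tested.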

How the data were processed

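Per the labels' protocols, small RNA of roughly 18 to 30 nucleotides was gel-purified from pooled testis RNA of 3 boars per age (30 and 180 days), ligated to adapters, amplified (15 PCR cycles) and read on an early Illumina instrument. The deposited lists, 1 per library, hold distinct tags with their raw read count, 1 miRNA entry of any species matched by the authors, and an alignment score that was not used. Aligner, database release and build: not given in the sources used here. Counts were summed by deposited name and arm, with copies pooled unless stated.

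Ratios have exact conditional (Clopper-Pearson) 95% intervals, shares exact Clopper-Pearson intervals, and ratios of ratios exact conditional odds ratio intervals (scipy 1.17.1). Main-arm tags of the family were also assigned by an exact match of 10 bases (9 in miR-181c) spanning the deciding bases. Best matches were ungapped, with up to 2 mismatches and 15 or more matching bases, ranked by matches minus mismatches. TMM factors came from edgeR 4.0.16, and the ratio function was tested on simulated data. The lowest whole-library totals, 12711254 and 12035098 reads, assume that tag numbers are ranks. Values are printed for family names with 20 or more reads over both libraries, and the 5 nearest miRNAs were taken among names with 500 or more reads in each. Other tags and sequences were chosen after their values were seen. The members and lists were chosen with earlier results of these data known. Marker lists were testis soma, meiotic and later germ cells, white blood cells, lymphocyte-linked miRNAs, red blood cells, endothelium, smooth muscle and mesenchyme.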

Additional observations from a re-analysis of the deposited data

How the results depend on the processing

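No paired analysis was possible because each age has 1 library. Of 79 recomputed values over 31 results, 38 stayed within the reported value's counting interval, or within 1.5 times a count, and 41 moved outside it. A called direction was reversed in 0. Of the 7 family names 0 were called higher or lower as reported, and shares have no direction. The count of reversals therefore cannot speak for the members. The scalings move all miRNAs by the same amount. As log2 ratios of the family total, miR-181a, miR-181b, miR-181c and miR-181d, TMM gave -1.78, -1.91, -1.69, -0.82 and -1.87, median-of-ratios scaling -1.77, -1.89, -1.67, -0.80 and -1.85, and the lowest whole-library totals -3.94, -4.06, -3.84, -2.97 and -4.02. With perfectly matching tags, which leaves out the miR-181d tags listed as miR-181b, the family total was at -0.95, miR-181b at -1.21 and miR-181d at -1.37, and the family's share of reads was 0.308% at 30 days and 0.159% at 180 days. The miR-181d value then rested on its tag of 23 nucleotides alone (1419 and 58 reads), so it does not stand for all ends of miR-181d. Without tags of 1 read, the family total was at -0.96 and miR-181b at -0.90, and the share at the mature start was 96.8 and 96.1% for miR-181b, 98.8 and 100% for miR-181d (30 and 180 days) and 99.7% for miR-181c at 30 days; the cause was not tested. The best-matching entry gave -1.10 for miR-181b and -0.49 for miR-181d, and the deciding bases, chosen after seeing the data, -1.09 and -0.49. Over all miRNAs, in place of 138 higher and 57 lower, there were 72 and 161 with TMM, 74 and 161 with median-of-ratios scaling, 27 and 396 at the whole-library totals and 69 and 36 with perfect tags, and 77 and 251 higher with a minimum of 100 reads and of 1 read. Members lower by the rule were 0 of 7 as reported (12.2% of all names), 2 of 6 with perfect tags (12.1%), 3 of 7 without tags of 1 read (18.3%, 81 of 443 names) and 2 of 7 with best matches (12%). The 180-day library, with 2065 family reads, limits the star arms and miR-181c most.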

Other observations

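Among the red blood cell markers, miR-451 was higher in the 180-day library, at 1535 and 3774 RPM (ratio 2.46, 2.36 to 2.56). The other members of that list had ratios below 1, miR-144 of 0.853 (0.659 to 1.09) and miR-486 of 0.697 (0.533 to 0.898). The smooth muscle markers miR-143 and miR-145, both higher, summed to 6581 and 17994 RPM. These ratios are per miRNA-matched read, and each would shift by -0.91 on the log2 scale with TMM.

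A substitution was seen inside the main arms, at the T that follows the core (position 19 from the 5′ end, 18 in miR-181c). Rates at other positions of the main arms were not set beside it, and its cause, read error included, was not tested. Among reads that continued to the end of the body, T19G was carried by 2.25% of miR-181a (1.98 to 2.55%), 2.80% of miR-181b (2.38 to 3.27%) and 1.56% of miR-181d reads (1.21 to 1.97%) at 30 days. At 180 days these shares were 1.31% (0.599 to 2.47%), 2.95% (1.36 to 5.53%) and 2.22% (0.964 to 4.33%). In miR-181c, T18G was carried by 7 of 940 reads at 30 days and by 0 of 112 at 180 days. Taken as 3 reads of that total, a count of 0 allows a share of up to 2.68%, and the exact interval reaches 3.24%.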
